A study of Mus musculus with 14 samples.

Results

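The TAC response was estimated over all 14 of 14 heart libraries as 1 effect of surgery with the genotype held constant, so that 10 TAC libraries were set against 4 sham libraries. Transverse aortic constriction (TAC) narrows the aorta and makes the left ventricle pump against raised pressure, and sham-operated mice go through surgery without the constriction. The study compared wild type mice with mice lacking Ccl24, a CC chemokine, and asked what this macrophage product does to the fibrosis of the loaded heart. Ventricular RNA was collected 1 week after surgery from 2 wild type sham, 6 wild type TAC, 2 knockout sham and 4 knockout TAC mice. The labels name the knockout as CCL24 KO and the 2 treatments as Sham and TAC, and they give no strain, sex, age or pressure gradient and no construction of the knockout allele. Each genotype alone has only 2 sham hearts, and the counts below stress the genes and functions that passed the threshold with both genotypes pooled and in neither genotype alone.

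A heart under pressure overload responds with growth of its muscle cells, return of fetal genes such as the natriuretic peptides and skeletal actin, and lower levels of genes for fatty acid use and calcium handling. Cells between the muscle fibres, above all fibroblasts and macrophages, divide and the fibroblasts lay down collagen. These programmes are carried by different cells of the ventricle, and in RNA from whole tissue fewer cells of a type and less RNA per cell cannot be told apart.

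Total counts per library ranged from 17072262 to 33123052 and did not differ detectably between TAC and sham (exact two-sided permutation test within genotype, p = 0.329, smallest possible 0.00238). The mitochondrially encoded share of counts was lower after TAC by 5.17 percentage points averaged over the genotypes (p = 0.00476 in the same exact permutation test), with 18.5% to 23.7% in sham and 10.1% to 19.2% in TAC libraries. Ccl24 itself was counted 56 to 105 times in 7 of the 8 libraries labelled wild type and 3 to 8 times in the 6 knockout libraries. The library labelled wild type TAC replicate 1 had 3 Ccl24 counts, within the knockout range, so its label and its Ccl24 level disagree. Without that library the pooled model called 2244 genes higher and 2139 lower, more than with it. Summed cardiomyocyte markers, Myh6 among them, were 43786 to 50979.5 CPM in sham and 32651 to 45634 CPM after TAC. No defining marker of 13 cell types was at 0 in all libraries. Values in CPM are counts scaled to library size with trimmed-mean factors, a log2 fold change is TAC minus sham from the additive model unless a genotype is named, and a gene is called at a Benjamini-Hochberg adjusted p under 0.05 in edgeR's quasi-likelihood test.

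Over 15876 tested genes the pooled model called 3990 (25.1%), of which 2036 (12.8%) were higher and 1954 (12.3%) lower after TAC, and 481 of the higher and 187 of the lower genes changed at least 2-fold. Tested alone with the same libraries in 1 fit of 4 group means, wild type gave 1009 higher (6.36%) and 921 lower genes (5.8%), and knockout gave 374 higher (2.36%) and 274 lower genes (1.73%). Of the 3990 genes, 1998 passed in the pooled model and in neither genotype, which is 12.6% of all genes tested and 50.1% of the genes called. These 1998 genes, 1011 higher (6.37%) and 987 lower (6.22%), are called pooled-only genes below. The median standard error of a log2 fold change was 0.12 in the pooled model, 0.17 in wild type and 0.18 in knockout. The pooled-only genes had a median absolute log2 fold change of 0.38, against 0.56 for the called genes that also passed in a genotype, and 279 of them changed at least 2-fold. The 3 comparisons share their libraries, so their lists are set side by side as counts and not as independent evidence. Nearest to the threshold, D11Wsu47e and C5ar1 were the last genes inside (adjusted p = 0.04987 and 0.04999) and Kcna1 and Prrt4 the first outside (0.05005 and 0.05010).

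The number of genes called depended on which sham libraries were in the fit. Leaving out 1 sham library left 1308 higher and 1148 lower genes without knockout sham 1, 1182 and 1104 without wild type sham 1, and 1081 and 1086 without wild type sham 2, while 1892 and 1795 remained without knockout sham 2. With 2 sham libraries left out the total fell further, from 818 higher and 905 lower without knockout sham 2 and wild type sham 1 down to 212 higher and 173 lower without knockout sham 1 and wild type sham 2. Counts for the single genotypes and the pooled-only genes depended on single libraries too. Wild type alone called 1930 genes with all libraries, 4 without wild type sham 1, 0 without wild type sham 2 and 1256 without wild type TAC 4. Knockout alone called 648 genes with all libraries, 1 without knockout sham 1, 183 without knockout sham 2, 200 without knockout TAC 2, 374 without knockout TAC 5 and 1361 without wild type TAC 7. The pooled-only count was 1107 without knockout sham 1. For the pooled model, leaving out a TAC library gave between 1677 and 2244 higher and between 1758 and 2204 lower genes. A gene was above every sham library in all 10 TAC libraries in 823 cases (5.18%) and below in 711 cases (4.48%), and among the pooled-only genes in 216 and 227 cases.

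**Figure D1:**
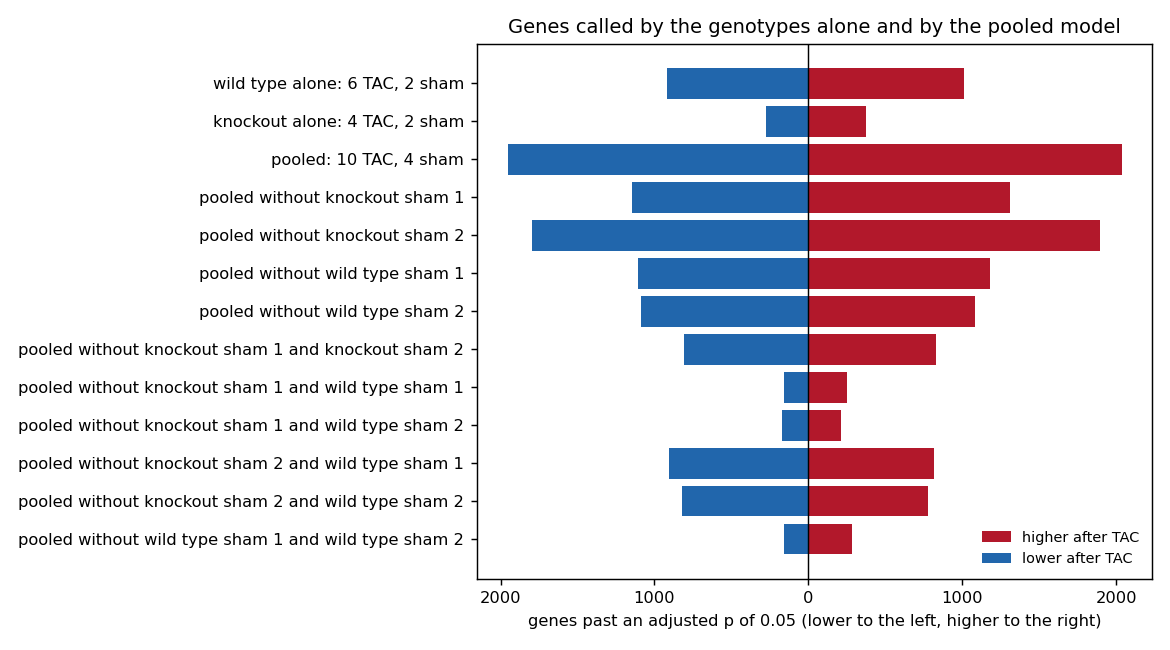
Number of genes called (x axis, lower after TAC to the left and higher to the right) by each genotype alone, by the pooled model with all libraries, and by the pooled model with 1 or 2 sham libraries left out. The pooled bars reach 2036 and 1954, the wild type bars 1009 and 921, and the shortest bars belong to pairs of sham libraries left out.

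Cell division genes had the highest median change of the lists described here. Among 46 genes of mitosis and chromosome segregation 42 rose and none fell (all genes: 12.8% and 12.3%), with a median log2 fold change of 2.08 over the list against -0.003 over all genes tested. Most also passed in a genotype: 34 rose in wild type alone (all genes: 6.36%) and 40 in knockout alone (2.36%), and the count of 42 was the same with each library left out in turn. Cdk1, the kinase that drives entry into mitosis, stood at 0.981 and 1.12 CPM in the wild type sham libraries, at 1.64 and 1.91 CPM in the knockout sham libraries and between 3.30 and 14.5 CPM after TAC (median 7.83). Cdk1 rose by 2.52 on the log2 scale (SE 0.27, adjusted p = 0.000127) with no overlap between the TAC and sham libraries. Its cyclin partners Ccnb1 and Ccnb2 rose by 2.89 and 2.29, Anln, the scaffold of the dividing furrow, by 2.15, and Mki67, the Ki-67 protein of dividing nuclei, by 2.29. Smc2, a core subunit of the condensin that packs chromosomes, was the only pooled-only member. Sham values of Smc2 were 3.33 and 4.97 CPM in wild type and 4.88 and 5.88 CPM in knockout, and TAC values ran from 4.08 to 12.3 CPM around a median of 7.83. Smc2 rose by 0.74 on the log2 scale (SE 0.18, adjusted p = 0.00725), and 8 of the 10 TAC libraries lay above all 4 sham libraries.

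Promoter sequence is given for the division genes because a sequence element of their class is well known. In the RefSeq promoter table for GRCm38.p6, which holds 250 bases before to 50 bases after the start of 27025 genes, 39 of the 46 mitosis genes were found. The hexamer TTTGAA, known as the cell cycle homology region, lay on either strand in 29 of these 39 genes (74.4%) and in 20.2% of all 27025 genes. Each gene was counted once, as a match if any of its promoters held the motif. Shares of promoters given below are counted by gene in the same way. CCAAT, the core of the NF-Y box, lay in 30 of 39 (76.9%) against 41.1%. Windows of 200 bases before to 20 after the start are printed for Cdk1, Ccnb2 and Mki67, members of small p with a TTTGAA match, 5′ to 3′ on the gene's strand, with TTTGAA or its reverse complement in capitals. They lie at Cdk1 (chr10:69352893-69353112, minus strand), Ccnb2 (chr9:70421535-70421754, minus strand) and Mki67 (chr7:135716360-135716579, minus strand).
Cdk1: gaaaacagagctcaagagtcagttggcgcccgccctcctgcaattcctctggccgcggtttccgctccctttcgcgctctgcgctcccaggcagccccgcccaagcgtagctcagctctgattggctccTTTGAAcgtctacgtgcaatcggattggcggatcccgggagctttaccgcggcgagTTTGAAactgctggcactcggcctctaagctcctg
Ccnb2: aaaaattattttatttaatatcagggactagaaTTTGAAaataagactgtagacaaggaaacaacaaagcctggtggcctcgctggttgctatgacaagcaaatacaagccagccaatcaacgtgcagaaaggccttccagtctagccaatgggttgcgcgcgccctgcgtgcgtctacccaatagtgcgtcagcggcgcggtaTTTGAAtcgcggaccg
Mki67: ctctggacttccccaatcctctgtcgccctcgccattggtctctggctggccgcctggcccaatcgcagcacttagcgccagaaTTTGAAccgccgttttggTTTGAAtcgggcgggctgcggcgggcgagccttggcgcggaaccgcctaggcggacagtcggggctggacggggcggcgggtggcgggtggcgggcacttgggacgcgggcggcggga

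DNA replication genes rose with the mitosis genes, and here the pooled model added members. Of 42 tested, 34 rose (all genes: 12.8%) and none fell, with a median log2 fold change of 0.89, and 9 were pooled-only (all genes: 6.37%). Alone, wild type called 19 and knockout 21. For Pclaf, a partner of the replication clamp PCNA, the wild type sham libraries gave 0.256 and 0.101 CPM, the knockout sham libraries 0.360 and 0.832 CPM, and the TAC libraries 1.26 to 6.09 CPM with a median of 2.82. Pclaf rose by 3.12 on the log2 scale (SE 0.40, adjusted p = 0.000218) with no overlap between the TAC and sham libraries. Tk1, a thymidine kinase, E2f1, a transcription factor of S-phase entry, and Mcm10, a replication initiation protein, rose by 2.17, 1.504 and 2.27. Cdc45, a subunit of the replicative helicase, was counted at 2.35 and 1.52 CPM (wild type sham), 3.13 and 2.20 CPM (knockout sham) and 2.58 to 5.53 CPM (TAC, median 4.17). Cdc45 rose by 0.88 on the log2 scale (SE 0.19, adjusted p = 0.00395), and every TAC library lay above the sham libraries of its own genotype, and 8 of the 10 above all 4 sham libraries. Tested in a single genotype, Cdc45 had adjusted p = 0.0571 in wild type and 0.0761 in knockout. Other pooled-only members were Orc1, an origin-binding subunit (1.82), and Rfc5, a clamp loader subunit (0.62). Of 15 G1 cyclins and cyclin kinase inhibitors 7 rose (all genes: 12.8%). Among them were the D and E cyclins Ccnd1 (0.69), Ccnd3 (0.31) and Ccne1 (0.89) and the kinase Cdk4 (0.29). Rfc5 lost its call without knockout sham 1 or wild type sham 2 (adjusted p up to 0.0691).

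E2F factors bind variants of TTTCCCGC and TTTGGCGC in genes of S phase. Of 36 replication genes with a promoter sequence, 7 held TTTCCCGC (19.4%, against 1.24% of all promoters) and 7 held TTTGGCGC (19.4%, against 0.585%), counted on either strand. Windows of the same length follow for Pclaf (chr9:65890123-65890342, plus strand), Cdc6 (chr11:98907951-98908170, plus strand) and Mcm6 (chr1:128359686-128359905, minus strand), where capitals mark either motif or its reverse complement. Cdc6, a helicase loader, and Mcm6, a helicase subunit, rose by 1.69 and 1.55 on the log2 scale.
Pclaf: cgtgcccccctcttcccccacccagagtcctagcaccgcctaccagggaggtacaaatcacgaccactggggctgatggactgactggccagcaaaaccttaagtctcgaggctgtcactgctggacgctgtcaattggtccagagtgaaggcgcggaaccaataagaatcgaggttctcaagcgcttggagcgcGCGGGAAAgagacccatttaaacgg
Cdc6: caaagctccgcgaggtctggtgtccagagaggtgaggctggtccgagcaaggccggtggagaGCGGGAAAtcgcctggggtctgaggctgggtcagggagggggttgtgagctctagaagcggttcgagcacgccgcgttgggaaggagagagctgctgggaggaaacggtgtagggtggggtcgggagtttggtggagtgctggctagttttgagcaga
Mcm6: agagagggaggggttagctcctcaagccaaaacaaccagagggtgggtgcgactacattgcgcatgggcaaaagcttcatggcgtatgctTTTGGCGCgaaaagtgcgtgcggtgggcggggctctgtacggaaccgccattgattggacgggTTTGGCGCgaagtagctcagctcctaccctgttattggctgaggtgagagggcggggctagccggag
Other motifs were searched on both strands of the same promoters. For each, the share of all promoters is given with the list of highest share among 10 searched. AAGGTCA, a core element of nuclear receptors, lay in 5.38% of all and in 2 of 20 citric acid cycle promoters, with 1 of 29 for fatty acid oxidation. TCAAGGTCA, the longer element of oestrogen-related receptors that contains it, lay in 0.466% of all and in 1 of 20 citric acid cycle promoters. The E-box CACGTG lay in 8.09% of all and in 5 of 23 immediate early gene promoters (21.7%). The cyclic AMP element TGACGTCA lay in 2.03% of all and in 3 of 23 immediate early gene promoters. The AP-1 site TGAGTCA lay in 5.95% of all and in 2 of 24 load-induced promoters (8.33%). The ETS site CCGGAAGT lay in 4.31% of all, in 8 of 37 ribosomal protein promoters (21.6%) and in 6 of 39 mitosis promoters (15.4%). A single variant of the CArG box of serum response factor was searched, so no share is given for that element. A match describes the letters of a window and is not a measured binding site.

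Genes that cardiomyocytes raise under load rose in 21 of 26 cases (all genes: 12.8%) with none lower, with a median log2 fold change of 0.88. Of these, 14 were pooled-only (all genes: 6.37%), while wild type alone called 7 and knockout alone 6. Nppa, which encodes atrial natriuretic peptide, stood at 705 and 541 CPM in the wild type sham libraries, at 181 and 203 CPM in the knockout sham libraries and between 599 and 5881 CPM after TAC (median 1467). Nppa rose by 2.21 on the log2 scale (SE 0.48, adjusted p = 0.00658), and 8 of the 10 TAC libraries lay above all 4 sham libraries. Its adjusted p was 0.0623 in wild type and 0.111 in knockout. The sham hearts of the 2 genotypes differed for Nppa, with both wild type values above both knockout values. For Rcan1, a calcineurin target that also inhibits calcineurin, the wild type sham libraries gave 136 and 149 CPM, the knockout sham libraries 118 and 98.2 CPM, and the TAC libraries 164 to 548 CPM with a median of 291. Rcan1 rose by 1.26 on the log2 scale (SE 0.28, adjusted p = 0.00631) with no overlap between the TAC and sham libraries. In the single genotypes the adjusted p was 0.0783 in wild type and 0.0809 in knockout. Sham values of Fhl1, a LIM protein of the sarcomere, were 260.2 and 201 CPM in wild type and 162 and 148 CPM in knockout, and TAC values ran from 246 to 1189 CPM around a median of 732. Fhl1 rose by 1.92 on the log2 scale (SE 0.45, adjusted p = 0.00931), and every TAC library lay above the sham libraries of its own genotype, and 9 of the 10 above all 4 sham libraries. Gdf15, a secreted stress cytokine, rose by 1.74 and was pooled-only as well, and its sham level was also higher in wild type (11.9 and 12.9 CPM) than in knockout (2.36 and 3.18 CPM). The calls of these 4 genes held with each library left out in turn.

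Members of this list that also passed in a genotype were led by Nppb, Ankrd1, Acta1 and Synpo2l. Nppb, which encodes B-type natriuretic peptide, was counted at 397 and 397 CPM (wild type sham), 300.03 and 394 CPM (knockout sham) and 558 to 1318 CPM (TAC, median 903). Nppb rose by 1.31 on the log2 scale (SE 0.19, adjusted p = 0.000454) with no overlap between the TAC and sham libraries. For Ankrd1, a titin-associated repressor of cardiac transcription, the wild type sham libraries gave 4417 and 4620.0 CPM, the knockout sham libraries 2514 and 2542 CPM, and the TAC libraries 5255 to 8381 CPM with a median of 6597. Ankrd1 rose by 0.93 on the log2 scale (SE 0.16, adjusted p = 0.000994) with no overlap between the TAC and sham libraries. Skeletal actin Acta1 rose by 1.42 and Synpo2l, a Z-disc protein, by 1.53 on the log2 scale. Without wild type sham 1 the list count was 13.

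Genes of contraction and ion handling fell in 17 of 31 cases (all genes: 12.3%) with none higher and a median log2 fold change of -0.45. Wild type alone called 16 of the 31 lower (all genes: 5.8%) and knockout 6 (1.73%). Those of smallest p were Atp2a2, which pumps calcium back into the sarcoplasmic reticulum (-0.81), Mylk3, a myosin light chain kinase of heart (-0.72), Cacna1c, the L-type calcium channel (-0.47), and Kcnv2, a potassium channel subunit (-1.62). Sham values of Kcnj2, the main inward rectifier potassium channel of ventricular muscle, were 55.1 and 59.0 CPM in wild type and 45.4 and 40.7 CPM in knockout, and TAC values ran from 16.5 to 31.8 CPM around a median of 23.3. Kcnj2 fell by 1.13 on the log2 scale (SE 0.12, adjusted p = 0.000152) with no overlap between the TAC and sham libraries. Of 29 potassium channel genes tested 13 fell and 2 rose (all genes: 12.3% and 12.8%). This list shares members with the contraction and ion handling list, Kcnv2 among them, so the counts are not separate. Kcnj5 (-0.80) and Kcnj12 (-0.76) were among the lower and Kcnn1 (-0.42) among the 2 pooled-only members. Myh6, the fast adult myosin heavy chain of mouse ventricle, was counted at 23656 and 22663 CPM (wild type sham), 26662 and 22237 CPM (knockout sham) and 13236 to 21930.5 CPM (TAC, median 18566). Myh6 fell by 0.36 on the log2 scale (SE 0.12, adjusted p = 0.0352) with no overlap between the TAC and sham libraries. For Myh7, the slow fetal-type myosin heavy chain, the wild type sham libraries gave 3099 and 2423 CPM, the knockout sham libraries 2509 and 2915 CPM, and the TAC libraries 2592 to 4991 CPM with a median of 3376. The log2 difference of Myh7 was 0.41 (SE 0.15, adjusted p = 0.0557), and 8 of the 10 TAC libraries lay above all 4 sham libraries. The fetal chain missed the threshold with a change no smaller in size than that of the adult chain, and it passed without knockout TAC 1 (adjusted p = 0.0434), with wild type TAC replicate 1, as labelled, left out (0.0191), with DESeq2 (0.0263) and with upper-quartile scaling (0.0497). The summed cardiomyocyte markers given above also ranged lower after TAC. That sum includes Myh6, which was the only 1 of the 5 markers called lower. The part of cardiomyocyte content in this and the metabolic lists was not tested. Myh6 lost its call without knockout sham 1, knockout TAC 2, 4 or 5 or wild type sham 1 or 2 (adjusted p up to 0.13).

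Cardiac transcription factors fell in 14 of 27 cases (all genes: 12.3%) with none higher, 3 of them pooled-only (all genes: 6.22%). Those of smallest p were Myocd, a coactivator of serum response factor (-0.76), the T-box factor Tbx5 (-0.80), Esrrg, an oestrogen-related receptor of energy metabolism (-0.78), and Mef2a (-0.41). Hopx, a homeodomain protein that does not bind DNA, stood at 155 and 142 CPM in the wild type sham libraries, at 201 and 191 CPM in the knockout sham libraries and between 46.8 and 135 CPM after TAC (median 89.8). Hopx fell by 0.93 on the log2 scale (SE 0.25, adjusted p = 0.0166) with no overlap between the TAC and sham libraries. The other pooled-only members were the forkhead factor Foxo3 (-0.36) and the retinoid X receptor Rxra (-0.33). Hopx and Rxra lost their calls without knockout sham 1 or wild type sham 1 or 2 (adjusted p up to 0.0603 and 0.0667), and Foxo3 without knockout sham 1 (adjusted p up to 0.0647).

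**Figure D2:**
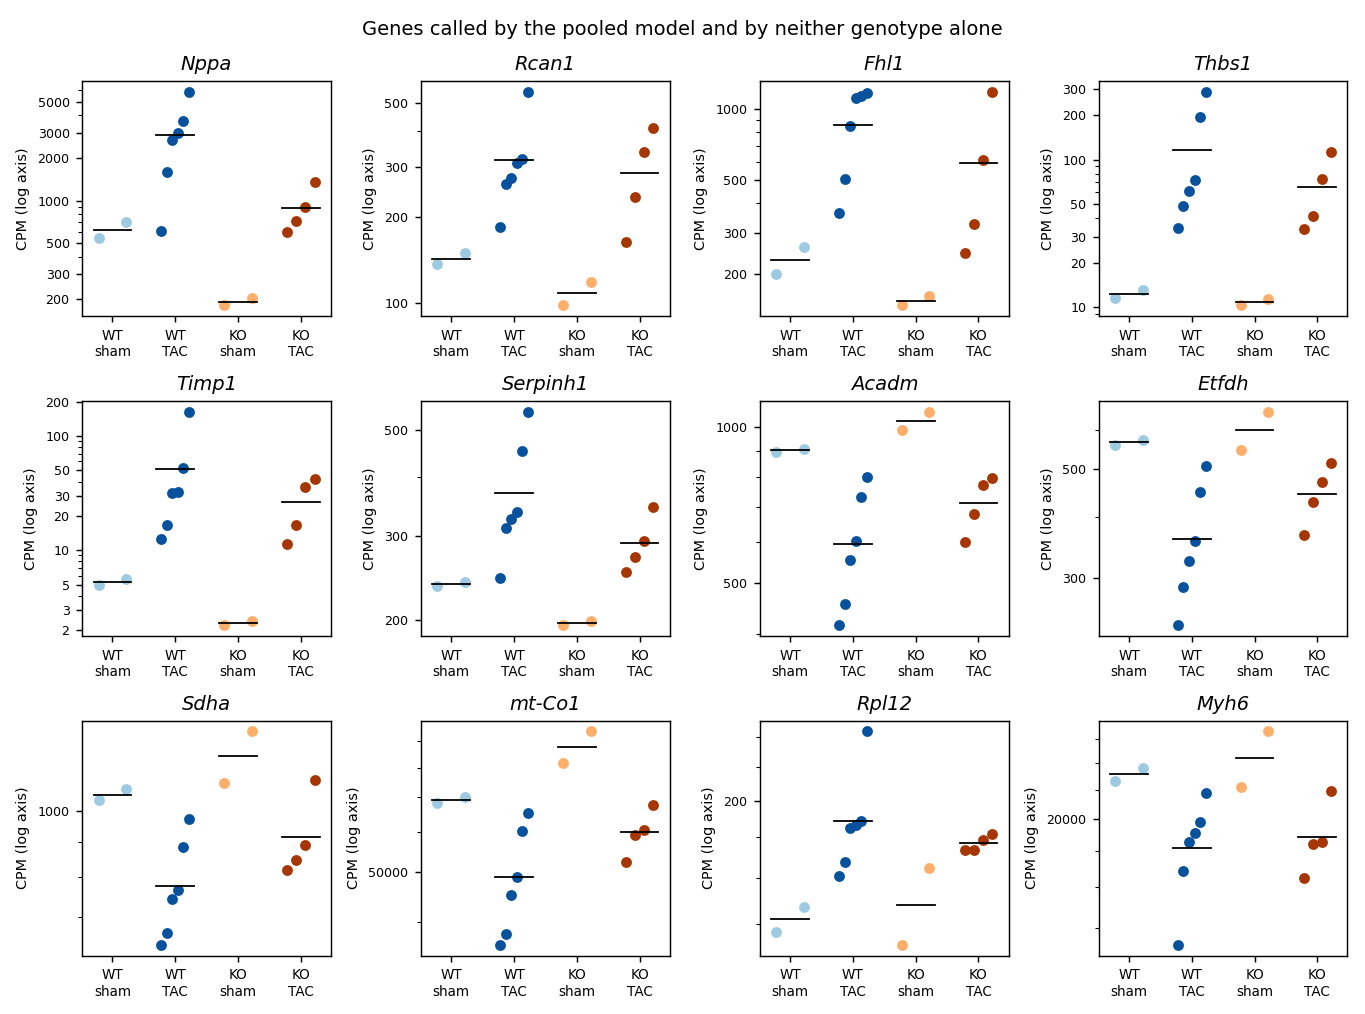
CPM in each library on log axes (points; lines mark group means) for 12 genes called by the pooled model and by neither genotype, with wild type (WT) and knockout (KO) groups side by side. Nppa, Rcan1, Fhl1, Thbs1, Timp1, Serpinh1 and Rpl12 are higher after TAC and Acadm, Etfdh, Sdha, mt-Co1 and Myh6 lower. The TAC points of a genotype spread over a wider range than its sham points in nearly every panel. Each genotype has 2 sham points and 4 or 6 TAC points, and more points tend to span a wider range by number alone.

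Fatty acid oxidation genes fell in 22 of 34 cases (all genes: 12.3%) with none higher and a median log2 fold change of -0.48. Of these, 11 were pooled-only (all genes: 6.22%). The regulators Ppargc1a and Ppara passed in a genotype too. For Ppargc1a, a coactivator that drives mitochondrial genes, the wild type sham libraries gave 73.2 and 70.6 CPM, the knockout sham libraries 80.2 and 58.9 CPM, and the TAC libraries 31.3 to 46.4 CPM with a median of 39.7. Ppargc1a fell by 0.86 on the log2 scale (SE 0.10, adjusted p = 0.000184) with no overlap between the TAC and sham libraries. Ppara, the lipid-sensing nuclear receptor, fell by 1.36 and Slc27a1, a fatty acid transporter, by 0.84. Acadm and Etfdh were among the pooled-only members. Sham values of Cd36, the main fatty acid importer of cardiomyocytes, were 1310.5 and 1220.2 CPM in wild type and 1575 and 1615 CPM in knockout, and TAC values ran from 956 to 1364 CPM around a median of 1078. Cd36 fell by 0.31 on the log2 scale (SE 0.07, adjusted p = 0.00606), and every TAC library lay below the sham libraries of its own genotype, and 7 of the 10 below all 4 sham libraries. Acadm, medium-chain acyl-CoA dehydrogenase, was counted at 907 and 896 CPM (wild type sham), 1071 and 986 CPM (knockout sham) and 415 to 802 CPM (TAC, median 642). Acadm fell by 0.57 on the log2 scale (SE 0.14, adjusted p = 0.00805) with no overlap between the TAC and sham libraries. Acadm had adjusted p = 0.056 in wild type and 0.164 in knockout when the genotypes were tested alone. Etfdh and Etfa, which pass electrons from these dehydrogenases to the respiratory chain, fell by 0.55 and 0.35. The list count was 13 without knockout sham 1 and 11 without wild type sham 1 or 2, and 14 with no genotype term in the model. Etfdh lost its call without knockout sham 1 or wild type sham 1 or 2 (adjusted p up to 0.0705), and Etfa without knockout sham 1 or wild type sham 2 (adjusted p up to 0.0602).

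Branched-chain amino acid and ketone catabolism genes fell in 19 of 23 cases (all genes: 12.3%) with none higher. Of these, 12 were pooled-only (all genes: 6.22%), and wild type alone called 6 and knockout 3. For Aldh6a1, methylmalonate semialdehyde dehydrogenase of valine breakdown, the wild type sham libraries gave 149 and 143 CPM, the knockout sham libraries 213 and 176 CPM, and the TAC libraries 84.3 to 129.6 CPM with a median of 96.7. Aldh6a1 fell by 0.71 on the log2 scale (SE 0.10, adjusted p = 0.000333) with no overlap between the TAC and sham libraries. Ppm1k, the phosphatase that activates the branched-chain keto acid dehydrogenase, fell by 0.90, Dbt, a core subunit of that complex, by 0.91 and Mut, methylmalonyl-CoA mutase, by 0.65. Sham values of Mccc2, a subunit of methylcrotonyl-CoA carboxylase of leucine breakdown, were 62.0 and 65.5 CPM in wild type and 82.2 and 77.2 CPM in knockout, and TAC values ran from 29.3 to 57.2 CPM around a median of 47.2. Mccc2 fell by 0.64 on the log2 scale (SE 0.15, adjusted p = 0.00637) with no overlap between the TAC and sham libraries. Its partner subunit Mccc1 (-0.40) and Acad8, a dehydrogenase of valine breakdown (-0.31), were pooled-only with it. The list count was 12 without knockout sham 1 and 12 without wild type sham 1.

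The citric acid cycle was called mainly in the pooled model. Of 23 genes 11 fell (all genes: 12.3%) and none rose, against 1 in wild type alone and 0 in knockout alone. Of the 11, 10 were pooled-only (all genes: 6.22%). The changes were small, with a list median of -0.25. The gene that also passed in wild type was Suclg2, a succinyl-CoA ligase subunit (-0.46). Pdha1, a subunit of pyruvate dehydrogenase, was counted at 1018 and 1039 CPM (wild type sham), 1169 and 956 CPM (knockout sham) and 697 to 972 CPM (TAC, median 797). Pdha1 fell by 0.38 on the log2 scale (SE 0.09, adjusted p = 0.00703), and 9 of the 10 TAC libraries lay below all 4 sham libraries. Sdha, the catalytic subunit of succinate dehydrogenase, stood at 1074 and 1036 CPM in the wild type sham libraries, at 1306 and 1099 CPM in the knockout sham libraries and between 636 and 1108 CPM after TAC (median 833). Sdha fell by 0.42 on the log2 scale (SE 0.11, adjusted p = 0.0114), and 9 of the 10 TAC libraries lay below all 4 sham libraries. Tested in a single genotype, Sdha had adjusted p = 0.0732 in wild type and 0.187 in knockout. Cs, citrate synthase, and Dld, the shared dihydrolipoamide dehydrogenase, fell by 0.39 and 0.42. The list count was 3 without knockout sham 1, 4 without wild type sham 1 or 2, 6 with no genotype term, and 7 without knockout TAC 2. Sdha lost its call without knockout sham 1 (adjusted p up to 0.0504), and Cs without knockout sham 1 or wild type sham 1 or 2 (adjusted p up to 0.0565).

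Genes on the mitochondrial genome fell, while few nuclear genes for the same respiratory complexes passed. Of 13 mitochondrially encoded protein genes 9 fell (all genes: 12.3%), 7 of them pooled-only (all genes: 6.22%), with a median log2 fold change of -0.48. Sham values of mt-Nd5, a complex I subunit, were 15833 and 14875 CPM in wild type and 14858 and 16818 CPM in knockout, and TAC values ran from 5812 to 11410.0 CPM around a median of 8581. mt-Nd5 fell by 0.81 on the log2 scale (SE 0.15, adjusted p = 0.00152) with no overlap between the TAC and sham libraries. mt-Co1, the catalytic subunit of complex IV, was counted at 70120.5 and 68330.5 CPM (wild type sham), 81660.5 and 94118 CPM (knockout sham) and 36124 to 67562 CPM (TAC, median 55822). mt-Co1 fell by 0.53 on the log2 scale (SE 0.14, adjusted p = 0.0137) with no overlap between the TAC and sham libraries. The complex I subunits mt-Nd2 (-0.63), mt-Nd1 (-0.48) and mt-Nd4 (-0.42) fell as well. mt-Nd3, a short complex I subunit, stood at 7.59 and 218 CPM in the wild type sham libraries, at 172 and 12.5 CPM in the knockout sham libraries and between 3.001 and 51.7 CPM after TAC (median 13.9). mt-Nd3 fell by 2.75 on the log2 scale (SE 0.81, adjusted p = 0.0282), and 3 of the 10 TAC libraries lay below all 4 sham libraries. One sham library of each genotype was low for mt-Nd3 and the other high. Among nuclear genes, 1 of 37 complex I subunits fell, 0 of 36 subunits of complexes III to V passed, and 1 of 48 mitochondrial ribosomal protein genes rose (Mrpl20, 0.28). For Ndufs1, the largest core subunit of complex I, the wild type sham libraries gave 668 and 664 CPM, the knockout sham libraries 737 and 657 CPM, and the TAC libraries 387 to 600.0 CPM with a median of 498. Ndufs1 fell by 0.41 on the log2 scale (SE 0.10, adjusted p = 0.007) with no overlap between the TAC and sham libraries. The count of 9 was 4 without knockout sham 2, wild type sham 1 or wild type sham 2, and 6 mitochondrial ribosomal protein genes and 2 subunits of complexes III to V fell with wild type TAC replicate 1, as labelled, left out (3 and 2 of the former without wild type TAC 2 and knockout TAC 1). With mitochondrially encoded genes left out of the library sizes, 22 of 34 fatty acid oxidation and 11 of 23 citric acid cycle genes fell. mt-Nd1 and mt-Nd4 lost their calls without knockout sham 2 or wild type sham 1 or 2 (adjusted p up to 0.0787 and 0.0863), and Mrpl20 without knockout sham 1, knockout TAC 2 or wild type sham 1 or 2 (adjusted p up to 0.141). mt-Nd3 lost its call without knockout sham 1 or wild type sham 2 (adjusted p up to 0.296).

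Of 24 genes of glucose uptake and glycolysis 4 rose, all of them pooled-only, and 5 fell, shares not far from those of all genes (12.8% and 12.3%), so the members are given singly. The phosphofructokinase isoforms Pfkm and Pfkp went opposite ways. Sham values of Pfkm, the muscle form, were 1095 and 1075 CPM in wild type and 1109.6 and 986 CPM in knockout, and TAC values ran from 592 to 964 CPM around a median of 794. Pfkm fell by 0.42 on the log2 scale (SE 0.11, adjusted p = 0.0107) with no overlap between the TAC and sham libraries. Pfkp, the platelet form, was counted at 94.2 and 83.8 CPM (wild type sham), 66.5 and 66.5 CPM (knockout sham) and 91.5 to 247 CPM (TAC, median 141). Pfkp rose by 0.85 on the log2 scale (SE 0.21, adjusted p = 0.0109), and every TAC library lay above the sham libraries of its own genotype, and 9 of the 10 above all 4 sham libraries. Hexokinase Hk2 (-0.41), the phosphofructokinase regulator Pfkfb1 (-1.55) and the insulin-responsive glucose transporter Slc2a4 (-0.46) fell, and the lactate exporter Slc16a3 (1.03) and the enolase Eno1 (0.27) rose. The count of higher genes was 1 without wild type sham 1 or 2 and 2 without knockout sham 1 or 2. Eno1 lost its call without knockout sham 1 or wild type sham 1 or 2 (adjusted p up to 0.0851), and Slc16a3 without knockout sham 2 or wild type sham 1 or 2 (adjusted p up to 0.0752).

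**Figure D3:**
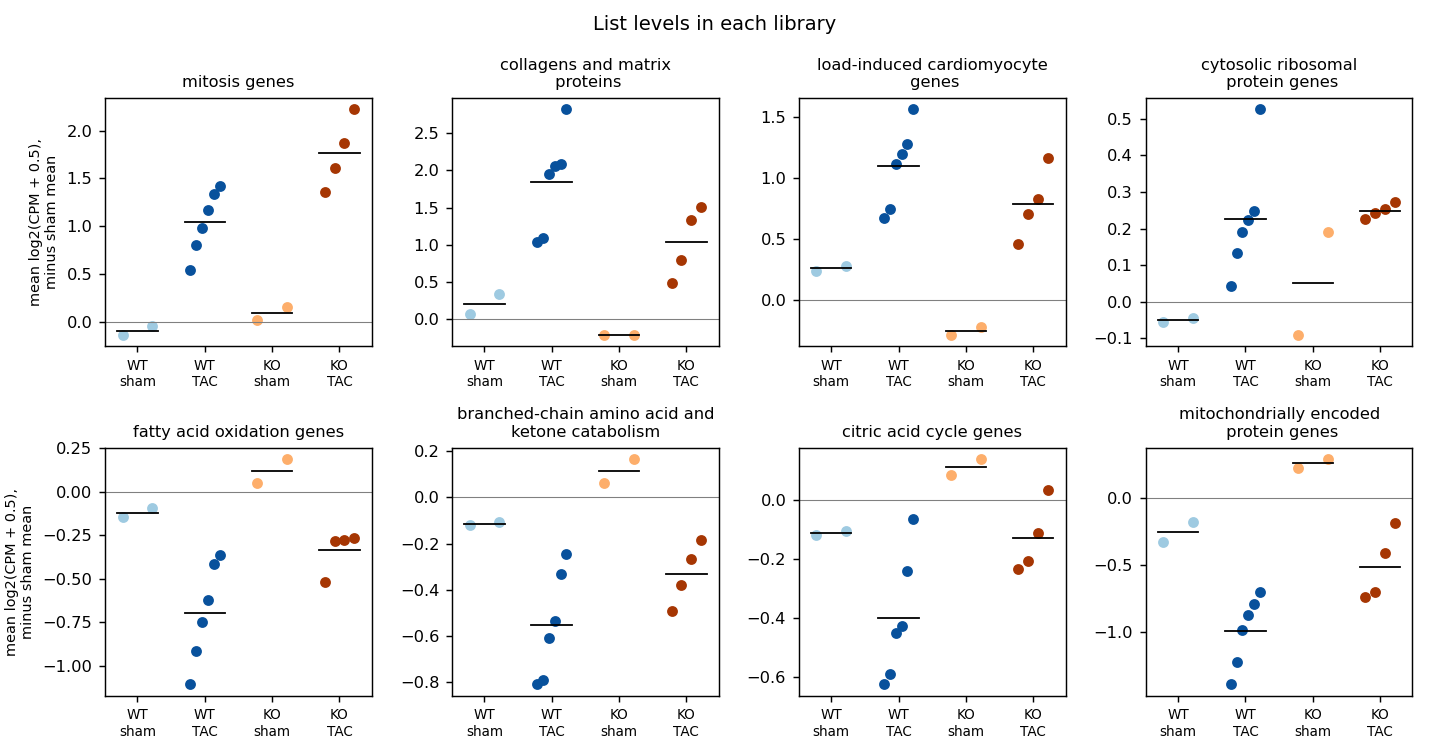
Level of 8 gene lists in each library (points; lines mark group means), as the mean log2 (CPM + 0.5) over the list minus the mean of the 4 sham libraries. All 10 TAC libraries lie above all sham libraries for mitosis, matrix and load-induced genes and below them for fatty acid oxidation and branched-chain catabolism, against 9 of 10 below for mitochondrially encoded genes, 7 of 10 below for the citric acid cycle and 7 of 10 above for cytosolic ribosomal protein genes.

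Matrix genes rose in 32 of 36 cases (all genes: 12.8%) with none lower and a median log2 fold change of 1.48. Wild type alone called 26 and knockout alone 4, and 9 were pooled-only (all genes: 6.37%). Col1a1, the main chain of fibrillar collagen I, stood at 294 and 241 CPM in the wild type sham libraries, at 186 and 167 CPM in the knockout sham libraries and between 312 and 2181 CPM after TAC (median 629). Col1a1 rose by 1.75 on the log2 scale (SE 0.40, adjusted p = 0.0086) with no overlap between the TAC and sham libraries. For Postn, periostin of activated fibroblasts, the wild type sham libraries gave 234 and 178 CPM, the knockout sham libraries 68.3 and 55.2 CPM, and the TAC libraries 198 to 2409 CPM with a median of 592. Postn rose by 2.66 on the log2 scale (SE 0.49, adjusted p = 0.0027), and every TAC library lay above the sham libraries of its own genotype, and 9 of the 10 above all 4 sham libraries. The fibrillar collagen Col3a1 rose by 1.71, the collagens Col18a1, Col6a2 and Col15a1 by 0.76, 1.11 and 1.27, and the large proteoglycan Vcan by 1.48. Sham values of Thbs1, a thrombospondin that activates latent TGF-beta, were 13.1 and 11.4 CPM in wild type and 11.4 and 10.2 CPM in knockout, and TAC values ran from 33.9 to 289 CPM around a median of 66.7. Thbs1 rose by 2.94 on the log2 scale (SE 0.67, adjusted p = 0.00925) with no overlap between the TAC and sham libraries. Its adjusted p was 0.0548 in wild type and 0.16 in knockout. Mfap4, a microfibril-associated protein (1.94), the thrombospondin Thbs4 (1.88) and the collagen Col16a1 (1.35) were pooled-only too. Of 16 basement membrane genes 9 rose (all genes: 12.8%), and 5 without wild type sham 1 or 2. Col16a1 and Mfap4 lost their calls without wild type sham 1 or 2 (adjusted p up to 0.0563 and 0.0514), and Thbs4 without wild type sham 2 (adjusted p up to 0.0504).

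Enzymes that fold and crosslink collagen rose in 17 of 23 cases (all genes: 12.8%) with none lower and 5 pooled-only (all genes: 6.37%). Those of smallest p were the lysyl oxidases Loxl2 (1.76) and Loxl1 (1.32), the prolyl hydroxylase P3h3 (0.66) and the peptidyl-prolyl isomerase Ppib (0.57). Serpinh1, the collagen chaperone HSP47, was counted at 240.5 and 236 CPM (wild type sham), 199 and 195 CPM (knockout sham) and 246 to 547 CPM (TAC, median 319). Serpinh1 rose by 0.60 on the log2 scale (SE 0.16, adjusted p = 0.0149) with no overlap between the TAC and sham libraries. P4ha3, another prolyl hydroxylase subunit, rose by 2.44 and was pooled-only. Serpinh1 lost its call without wild type sham 1 or 2 (adjusted p up to 0.0598).

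Activated fibroblast genes rose in 13 of 21 cases (all genes: 12.8%) with none lower, 5 of them pooled-only (all genes: 6.37%), and 7 rose without wild type sham 2. For Meox1, a homeodomain factor of activated fibroblasts, the wild type sham libraries gave 25.6 and 23.6 CPM, the knockout sham libraries 21.6 and 28.0 CPM, and the TAC libraries 51.4 to 116 CPM with a median of 77.9. Meox1 rose by 1.67 on the log2 scale (SE 0.18, adjusted p = 0.000188) with no overlap between the TAC and sham libraries. The matrix proteins Cilp (2.44) and Mfap5 (2.05) followed. Sham values of Timp1, an inhibitor of matrix metalloproteinases, were 5.63 and 4.92 CPM in wild type and 2.41 and 2.20 CPM in knockout, and TAC values ran from 11.4 to 164 CPM around a median of 32.1. Timp1 rose by 3.38 on the log2 scale (SE 0.80, adjusted p = 0.011) with no overlap between the TAC and sham libraries. Cthrc1, a secreted protein of scar fibroblasts, was counted at 0.597 and 0.0507 CPM (wild type sham), 0.154 and 0.196 CPM (knockout sham) and 0.574 to 34.0 CPM (TAC, median 3.84). Cthrc1 rose by 4.56 on the log2 scale (SE 1.46, adjusted p = 0.0398), and every TAC library lay above the sham libraries of its own genotype, and 9 of the 10 above all 4 sham libraries. The latent TGF-beta binding protein Ltbp2 (2.44) and the ligand Tgfb2 (1.44) were pooled-only. Cthrc1 lost its call without knockout sham 1 or 2, knockout TAC 1 or 2, wild type sham 1 or 2 or wild type TAC 3 (adjusted p up to 0.142), and Tgfb2 without knockout sham 1 or wild type sham 1 or 2 (adjusted p up to 0.0771). Ltbp2 lost its call without wild type sham 2 (adjusted p up to 0.0568).

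Of 21 genes of resting fibroblasts 5 rose and 5 fell (all genes: 12.8% and 12.3%). Those of smallest p were Cd248, endosialin (0.73), the surface antigen Ly6a (0.64), Vit, vitrin (-0.997), and Igfbp4, an IGF binding protein (0.42). Wild type alone had 7 higher and 0 lower, knockout alone 0 higher and 5 lower, and 9 of 21 had an unadjusted interaction p under 0.05 (all genes: 4.08%). Leaving out either wild type sham library left 3 higher, and leaving out knockout sham 1, knockout sham 2 or wild type sham 1 left 3 lower, as against 1 with no genotype term. Igfbp4 lost its call without wild type sham 2 (adjusted p up to 0.0596).

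Of 23 pan-macrophage genes 16 rose (all genes: 12.8%) and none fell in the pooled model. Wild type alone had 20 higher (all genes: 6.36%), and knockout alone 0 higher and 1 lower. The median log2 fold change was 0.85 in wild type and 0.36 in knockout, and 9 of 23 had an unadjusted interaction p under 0.05 (all genes: 4.08%). Cd68, a lysosomal glycoprotein of macrophages, stood at 10.7 and 11.6 CPM in the wild type sham libraries, at 11.05 and 10.4 CPM in the knockout sham libraries and between 12.99 and 22.4 CPM after TAC (median 19.5). Cd68 rose by 0.70 on the log2 scale (SE 0.13, adjusted p = 0.00152) with no overlap between the TAC and sham libraries. The protease Lgmn (0.57), the complement subunit C1qa (0.65) and the lysosomal protein Laptm5 (0.65) rose with it, and Aif1 (0.64) was the pooled-only member. The count was 7 without wild type sham 1 and 9 without wild type sham 2. Of 14 genes of monocytes and recruited macrophages 7 rose (all genes: 12.8%), and 3 did without knockout sham 1, wild type sham 1 or wild type sham 2. Among the 7 were the monocyte-attracting chemokines Ccl2 (1.74) and Ccl7 (1.69) and galectin-3, Lgals3 (0.997). Lgals3 lost its call without knockout sham 1 or wild type sham 1 or 2 (adjusted p up to 0.0919), and Aif1 without knockout sham 2 or wild type sham 1 (adjusted p up to 0.0714).

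Defining markers of the cell types between the muscle fibres were summed in each library. The 4 fibroblast markers summed to 394 to 528 CPM in sham and 514 to 2515 CPM in TAC libraries, with 1 of 4 called higher, and the 4 macrophage markers to 136 to 148 CPM in sham and 139.8 to 294 CPM in TAC libraries, with 3 of 4 called higher. The fibroblast sum includes Col1a1. The part of cell number in the matrix, fibroblast and macrophage lists was not tested. The 4 endothelial markers summed to 742 to 982 CPM in sham and 544 to 957 CPM in TAC libraries, and the 3 erythroid markers to 86.5 to 183 CPM in sham and 129.7 to 687 CPM in TAC libraries. None of 20 endothelial, 10 neutrophil, 12 T and NK cell, 7 MHC class II and 5 erythroid genes passed in the pooled model, and 1 of 9 B cell genes fell. A list without calls is not shown to be unchanged. The neutrophil list had a median log2 fold change of 1.71 in wild type and -0.31 in knockout. Of its 10 genes 3 had an unadjusted interaction p under 0.05 (all genes: 4.08%). It summed to 13.8 to 27.8 CPM in sham and 12.7 to 84.5 CPM in TAC libraries.

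**Figure D4:**
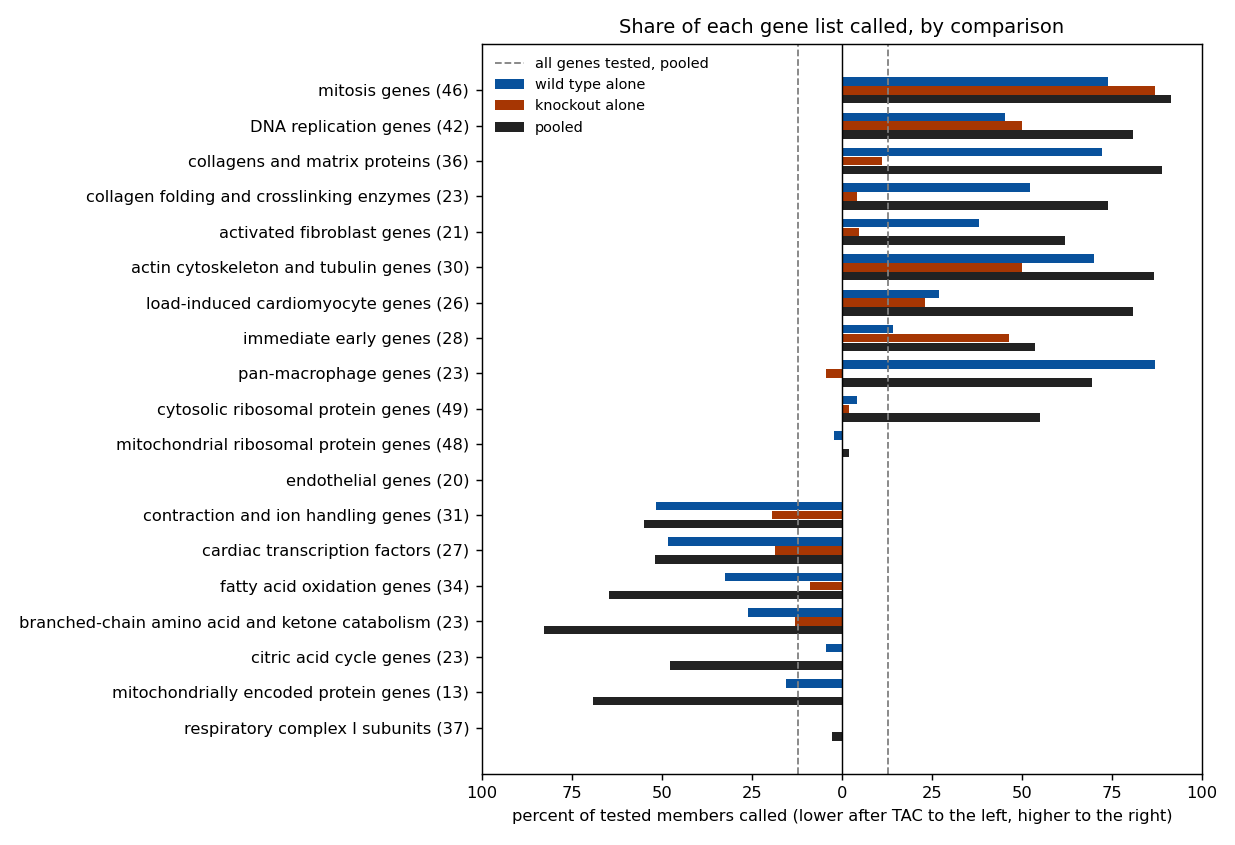
Percent of the tested members of 19 gene lists (number in parentheses) called lower (left) and higher (right) in wild type alone, knockout alone and the pooled model. Dashed lines give the pooled share of all genes, 12.3% lower and 12.8% higher. The pooled bars are far longer than both single-genotype bars for the branched-chain, load-induced, mitochondrially encoded, cytosolic ribosomal and citric acid cycle lists, and the wild type bar is the longest for macrophage genes.

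Cytosolic ribosomal protein genes, the largest list, held the most pooled-only members by count of the lists described. By share this list did not lead. Pooled-only were also 14 of 26 load-induced, 7 of 13 mitochondrially encoded and 12 of 23 branched-chain and ketone genes. Of 49 ribosomal protein genes tested, 27 rose (all genes: 12.8%) and none fell, against 2 in wild type and 1 in knockout alone. Of the 27, 25 were pooled-only (all genes: 6.37%). The changes were small, with log2 fold changes from 0.05 to 0.67 over the 49 genes and a median of 0.24. Summed over the list, the libraries held 9476 to 11504 CPM in the sham libraries and 10402 to 14652 CPM after TAC (median 11825). For Rpl3, a core protein of the large subunit, the wild type sham libraries gave 139.7 and 127 CPM, the knockout sham libraries 93.0 and 114 CPM, and the TAC libraries 144 to 265 CPM with a median of 179. Rpl3 rose by 0.67 on the log2 scale (SE 0.11, adjusted p = 0.000778) with no overlap between the TAC and sham libraries. Sham values of Rpl12, a protein of the ribosomal stalk base, were 147 and 137 CPM in wild type and 132 and 165 CPM in knockout, and TAC values ran from 161 to 244 CPM around a median of 180.0. Rpl12 rose by 0.34 on the log2 scale (SE 0.10, adjusted p = 0.0174), and every TAC library lay above the sham libraries of its own genotype, and 9 of the 10 above all 4 sham libraries. In the single genotypes the adjusted p was 0.056 in wild type and 0.321 in knockout. Rps6, a small-subunit protein phosphorylated on growth signals, rose by 0.24, and Rpsa, Rps20, Rpl18 and Rpl37 by 0.34, 0.31, 0.26 and 0.26. Ribosomal protein genes have many processed pseudogenes, so single members are uncertain where the counting could split their reads. The count of this list depended on single libraries: 1 gene rose without each of knockout sham 1, wild type sham 1 and wild type sham 2, 11 rose without knockout TAC 2, 14 without wild type TAC 3, and 16 with no filter on low counts. Rpl12, Rps6, Rpsa, Rps20, Rpl18 and Rpl37 lost their calls without knockout sham 1 or wild type sham 1 or 2 (adjusted p up to 0.0909, 0.0983, 0.072, 0.124, 0.108 and 0.103).

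Ribosomal protein messages begin with a terminal oligopyrimidine (TOP) tract, through which their translation follows growth signals. A C followed by 4 pyrimidines exactly at the annotated start, on the gene's strand, was found in 9 of 37 ribosomal protein genes of the promoter table (24.3%), in 3.01% of all promoters and in 0 of 41 mitochondrial ribosomal protein genes. Windows of 60 bases before to 20 after the start are printed for 3 matches of small p, with the tract in capitals, at Rps6 (chr4:86857348-86857427, minus strand), Rpl15 (chr14:18270967-18271046, minus strand) and Rpl38 (chr11:114668520-114668599, plus strand). Rpl15 and Rpl38 rose by 0.23 and 0.31 on the log2 scale. Rps6, Rpl15 and Rpl38 lost their calls without knockout sham 1 or wild type sham 1 or 2 (adjusted p up to 0.0983, 0.0946 and 0.113).
Rps6: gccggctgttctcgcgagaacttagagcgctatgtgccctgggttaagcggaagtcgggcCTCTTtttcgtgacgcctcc
Rpl15: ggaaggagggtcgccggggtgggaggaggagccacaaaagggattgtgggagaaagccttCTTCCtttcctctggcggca
Rpl38: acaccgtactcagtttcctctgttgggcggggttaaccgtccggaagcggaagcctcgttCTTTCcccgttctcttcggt

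Cytoskeletal genes rose in 26 of 30 cases (all genes: 12.8%) with none lower, and wild type alone called 21 and knockout 15. Those of smallest p were the actin-severing protein Cfl1 (0.65), vimentin, Vim (0.98), the beta-tubulin Tubb5 (0.72) and the thymosin Tmsb10 (0.78). Profilin, Pfn1 (0.35), the cytoplasmic tropomyosin Tpm3 (0.43) and the tubulin Tubb2b (1.55) were pooled-only. Immediate early genes rose in 15 of 28 cases (all genes: 12.8%), 4 of them pooled-only (all genes: 6.37%). Here knockout alone called 13 higher (all genes: 2.36%) and wild type 4 (all genes: 6.36%). The median log2 fold change was 0.86 in knockout and 0.36 in wild type. An unadjusted interaction p under 0.05 was found for 13 of 28 (all genes: 4.08%). Jun, an AP-1 subunit, stood at 40.9 and 42.5 CPM in the wild type sham libraries, at 42.7 and 39.7 CPM in the knockout sham libraries and between 44.8 and 80.2 CPM after TAC (median 56.4). Jun rose by 0.56 on the log2 scale (SE 0.10, adjusted p = 0.00121) with no overlap between the TAC and sham libraries. The EGR factors Egr2 (2.31) and Egr3 (1.95) and the stress factor Atf3 (1.67) rose as well, and the AP-1 subunits Jund (0.54) and Junb (1.25) were pooled-only. Junb lost its call without knockout sham 1 or wild type sham 1 or 2 (adjusted p up to 0.0786), and Tubb2b without knockout sham 1 or wild type sham 2 (adjusted p up to 0.0519).

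Of 15 heat shock genes 5 rose and 1 fell, and of 19 endoplasmic reticulum folding genes 2 rose and 3 fell (all genes: 12.8% and 12.3%). The share of endoplasmic reticulum genes called is near that of all genes, 25.1%, so its members are given singly. For Hsp90aa1, the inducible HSP90 of the cytosol, the wild type sham libraries gave 148 and 151 CPM, the knockout sham libraries 127 and 115 CPM, and the TAC libraries 145 to 249 CPM with a median of 175. Hsp90aa1 rose by 0.42 on the log2 scale (SE 0.12, adjusted p = 0.0146), and 9 of the 10 TAC libraries lay above all 4 sham libraries. The inducible HSP70 gene Hspa1b rose by 1.499, though it is nearly identical to Hspa1a and its counts are uncertain as a single gene. The cochaperones Dnajb1 (0.37) and Dnajb4 (0.35) rose and the mitochondrial chaperonin Hspd1 (-0.40) fell. Sham values of Canx, the lectin chaperone calnexin, were 262 and 260.2 CPM in wild type and 264 and 243 CPM in knockout, and TAC values ran from 198 to 236 CPM around a median of 225. Canx fell by 0.24 on the log2 scale (SE 0.06, adjusted p = 0.00835) with no overlap between the TAC and sham libraries. Herpud1, of endoplasmic reticulum-associated degradation, fell by 0.40, and protein disulfide isomerase, P4hb (0.40), and Edem1 (0.33) rose. The heat shock count was 2 without knockout sham 2 or wild type sham 1. Edem1 lost its call without knockout TAC 2 or wild type sham 1 or 2 (adjusted p up to 0.14), and Dnajb1 without knockout sham 2 (adjusted p up to 0.0533). Dnajb4 lost its call without knockout sham 2 or wild type sham 1 (adjusted p up to 0.0599), and Hspa1b without wild type sham 1 (adjusted p up to 0.0629). Hspd1 lost its call without wild type sham 1 or 2 (adjusted p up to 0.0566), and P4hb without wild type sham 2 (adjusted p up to 0.0638).

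The 12 largest increases at 1 CPM or more were those of Cthrc1 (4.56), Ereg (3.92), Spp1 (3.90), Fmod (3.77), Tnc (3.73), C1qtnf3 (3.43), Wisp1 (3.38), Timp1 (3.38), Gcnt4 (3.13), Pclaf (3.12), Star (3.09) and Col9a2 (3.08). Spp1 encodes osteopontin, Fmod fibromodulin, Tnc tenascin C and Ereg the growth factor epiregulin. Among the 12 largest decreases were those of Amd-ps3 (-2.79), mt-Nd3 (-2.75), Cngb3 (-2.08), mt-Nd4l (-1.95), Uckl1os (-1.89), Scd4 (-1.70), Mas1 (-1.68), Clcn1 (-1.65), Ces1d (-1.65), Kcnv2 (-1.62) and Ppl (-1.61). These include the receptor Mas1, the chloride channel Clcn1, the fatty acid desaturase Scd4 and the carboxylesterase Ces1d. Amd-ps3 is a pseudogene, Uckl1os an antisense transcript and mt-Nd4l overlaps mt-Nd4, so their counts are uncertain. Of the 24 largest changes 13 were pooled-only. Cthrc1 and Fmod lost their calls without knockout sham 1 or 2, knockout TAC 1 or 2, wild type sham 1 or 2 or wild type TAC 3 (adjusted p up to 0.142 and 0.135), and mt-Nd4 and Clcn1 without knockout sham 2 or wild type sham 1 or 2 (adjusted p up to 0.0863 and 0.0912). Amd-ps3 lost its call without knockout sham 1 (adjusted p up to 0.051), and Star without knockout sham 1, knockout TAC 1 or wild type sham 1 or 2 (adjusted p up to 0.126). Spp1 lost its call without knockout sham 1 or 2, knockout TAC 1, 2, 4 or 5, wild type sham 1 or 2 or wild type TAC 3 or 6 (adjusted p up to 0.151), and Wisp1 without knockout sham 1 or 2, knockout TAC 1 or 2, wild type sham 1 or 2 or wild type TAC 3 or 6 (adjusted p up to 0.154). mt-Nd4l lost its call without knockout sham 1 or 2 or wild type sham 1 or 2 (adjusted p up to 0.0719), and Mas1 without knockout sham 1 or 2, wild type sham 1 or 2 or wild type TAC 3, 4 or 6 (adjusted p up to 0.135). mt-Nd3 lost its call without knockout sham 1 or wild type sham 2 (adjusted p up to 0.296), and Ces1d without wild type sham 1 (adjusted p up to 0.0544). C1qtnf3 lost its call without wild type sham 1 or 2 (adjusted p up to 0.0992). Ereg, Tnc, Gcnt4, Col9a2, Cngb3, Uckl1os, Scd4, Kcnv2 and Ppl, with Timp1 and Pclaf, passed with each library left out in turn.

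The 30 pooled-only genes of smallest p had log2 fold changes between 0.27 (Coro1b) and 1.60 (Rad54l) in size. The 15 higher were Cdc45, Vasp, Tnfaip8l1 (0.75), Cbx6 (0.34), Adam15 (0.42), Mettl9 (0.30), Twf2 (0.39), Cks1b (0.72), Megf6 (0.60), Arhgef39 (1.52), Sec61b (0.52), Coro1b (0.27), Babam2 (0.36), Rad54l (1.60) and Esyt1 (0.42). For Vasp, which extends actin filaments, the wild type sham libraries gave 50.1 and 49.9 CPM, the knockout sham libraries 48.4 and 54.3 CPM, and the TAC libraries 56.6 to 73.9 CPM with a median of 65.6. Vasp rose by 0.35 on the log2 scale (SE 0.07, adjusted p = 0.00291) with no overlap between the TAC and sham libraries. Vasp had adjusted p = 0.0549 in wild type and 0.0551 in knockout when the genotypes were tested alone. Twf2 and Coro1b also act on actin, the former binding monomers and the latter turning over branched filaments, Cks1b and Rad54l serve the cell cycle and DNA repair, and Sec61b is part of the protein channel of the endoplasmic reticulum. The 15 lower were Corin, Pdk1, Plin4, Isoc1 (-0.59), Tfpi (-0.33), Mettl17 (-0.46), Phactr2 (-0.36), Arhgap5 (-0.40), Pcmtd1 (-0.37), Nbr1 (-0.30), Slc9a2 (-0.73), Mdga1 (-0.57), Ctnnal1 (-0.38), Art4 (-0.99) and Agtpbp1 (-0.32). Corin, the protease that processes atrial natriuretic peptide, was counted at 183 and 154 CPM (wild type sham), 155 and 124 CPM (knockout sham) and 77.0 to 155 CPM (TAC, median 109). Corin fell by 0.57 on the log2 scale (SE 0.12, adjusted p = 0.0038), and 8 of the 10 TAC libraries lay below all 4 sham libraries. Corin fell while Nppa, whose product it cleaves, rose. Pdk1, a pyruvate dehydrogenase kinase, stood at 219.8 and 218 CPM in the wild type sham libraries, at 219.8 and 195 CPM in the knockout sham libraries and between 145 and 194 CPM after TAC (median 177). Pdk1 fell by 0.32 on the log2 scale (SE 0.07, adjusted p = 0.00382) with no overlap between the TAC and sham libraries. Sham values of Plin4, a lipid droplet coat protein, were 238 and 218 CPM in wild type and 296 and 231 CPM in knockout, and TAC values ran from 151 to 217 CPM around a median of 181. Plin4 fell by 0.43 on the log2 scale (SE 0.09, adjusted p = 0.00308) with no overlap between the TAC and sham libraries. Tested in a single genotype, Plin4 had adjusted p = 0.0501 in wild type and 0.0683 in knockout. Tfpi inhibits tissue factor and Nbr1 is an autophagy receptor. None of these 30 calls was lost with each library left out in turn.

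**Figure D5:**
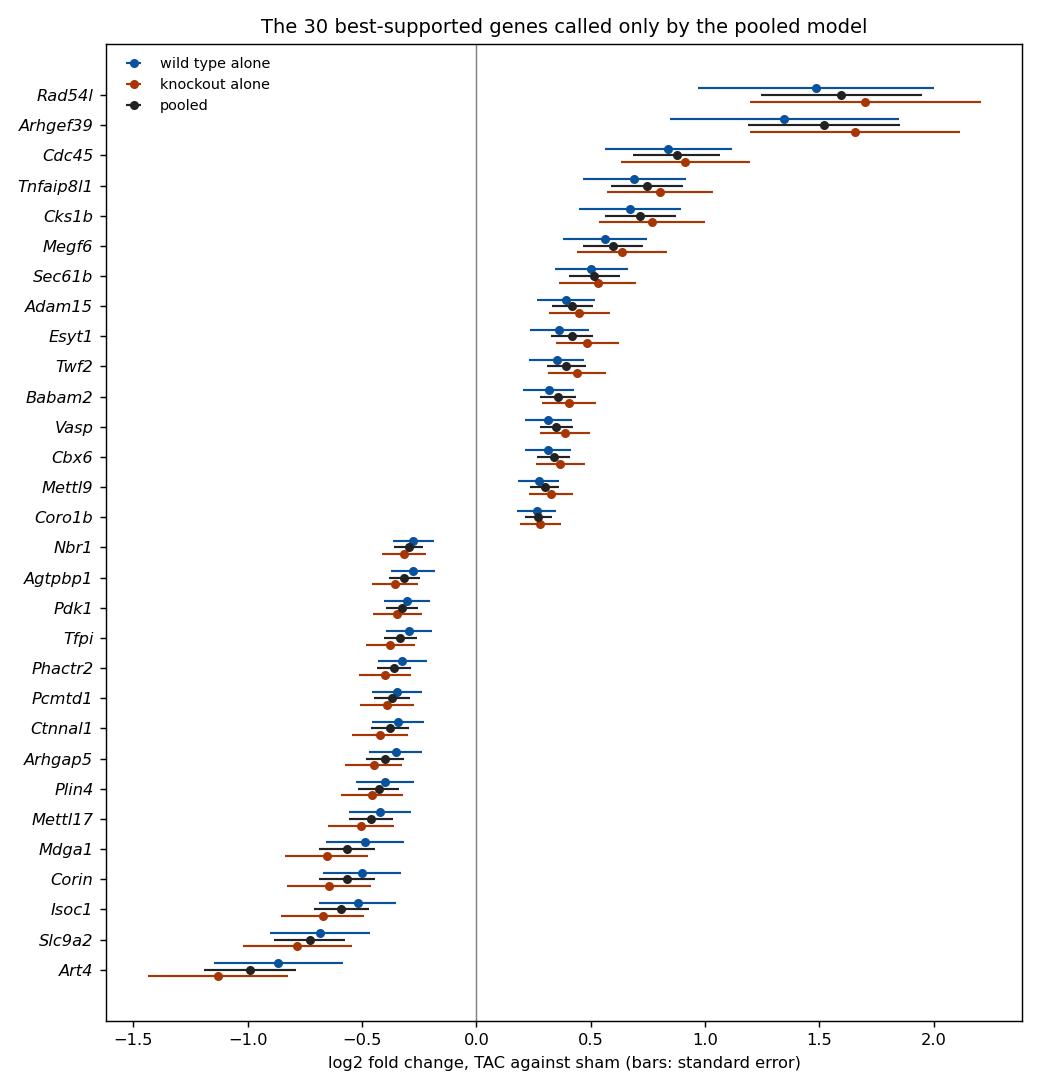
Log2 fold change with its standard error (points and bars) for the 15 higher and 15 lower pooled-only genes of smallest p, in wild type alone, knockout alone and pooled. Ranking by the pooled p picks genes whose genotypes changed alike, so the 3 estimates of a gene lie close together, and the pooled bar is the shortest.

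The pooled model takes the response as the same in both genotypes, and the interaction of genotype and surgery tests this per gene. No gene passed in edgeR's quasi-likelihood test (0 of 15876, smallest adjusted p = 0.107), 647 had an unadjusted p under 0.05 (4.08%), limma voom called 0 and DESeq2 called 6. With 1 library left out the edgeR count was 3 with wild type TAC replicate 1, as labelled, left out, 1 without wild type TAC 7, 1 without knockout TAC 4 and 0 in the other 11 fits. Among the 3990 genes of the pooled model 143 had an unadjusted interaction p under 0.05 (3.58%), and among the pooled-only genes 0 had. Selection by the pooled p favours genes whose genotypes changed alike, so these shares do not show a common response. A gene that misses the interaction threshold is not shown to respond alike in both genotypes. As the mean of the 2 single-genotype effects, fitted without the assumption of a common effect, the response was called in 2009 higher and 1839 lower genes.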

How the data were processed

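PolyA RNA of mouse heart ventricle was sequenced in 14 libraries with 17072262 to 33123052 counts each. Whole-number counts per gene were deposited by the authors as 1 table of 54532 gene IDs, of which 54495 were found in GENCODE M21. Per the submitters' processing notes the tools were FastQC, HISAT2 2.1.0, featureCounts and edgeR with the build GRCm38. The strand setting and annotation release were not given in the sources used here, so reads of overlapping or antisense genes may not be separated. Groups came from the genotype and treatment labels.

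The counts were fitted in R 4.3.3 with edgeR 4.0.16 (filterByExpr on the 4 groups, trimmed-mean (TMM) scaling, robust quasi-likelihood F test) with terms for genotype and surgery, and a gene was called at a Benjamini-Hochberg adjusted p under 0.05 over the 15876 genes tested. A fit of 4 group means gave the single-genotype effects and the interaction. Only the additive fit was tested on simulated data, with far fewer changed genes than were called here, and the fit of 4 group means was not. Single values used an exact two-sided permutation of surgery within genotype. Alternatives were other scalings, other filters, DESeq2 1.42.0, limma 3.58.1 (voom), other designs, each library left out and, chosen after seeing the data, upper-quartile scaling, mitochondrially encoded genes left out, pairs of sham libraries left out and other tools for the interaction. No pair of replicate libraries agreed within sampling noise (lowest chi-square per degree of freedom 4.55).

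The gene lists and the comparison itself were chosen with earlier results of these data known. Some genes stand in several lists, such as Cthrc1 among matrix and activated fibroblast genes, so counts of different lists are not independent. Named by rule were the 12 largest called changes in each direction at a mean of 1 CPM or more, the 15 pooled-only genes of smallest p in each direction, up to 4 members of smallest p per described list, and a set of markers of load and fibrosis; genes withheld for evaluation are not reported here. Chosen after their values were seen were up to 4 pooled-only members of a list, genes nearest the threshold, and Mki67, Cdc6, Mcm6, Rps6, Rpl15 and Rpl38 for their promoters. Promoter sequences are RefSeq's for GRCm38.p6.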

Additional observations from a re-analysis of the deposited data

Results flagged for a closer look

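The total counts, the mitochondrially encoded share and the CPM of 55 genes, some of them named above without a value per library, were searched in each group of 4 or 6 TAC libraries for 1 library far from the others, by its gap to the nearest library over the range of the group. Of 114 groups 9 held such a library, and chance gives about 1 in 20. Wild type TAC replicate 7 stood apart in 5 of the 9: it had the highest Rcan1 (547.6 CPM, the others 184.9 to 318.3), Timp1 (164.3 CPM, the others 12.5 to 52.3), Rpl12 (244.1 CPM, the others 161.0 to 188.5) and Hspa1b (9.53 CPM, the others 1.76 to 4.44) of its group and the lowest Isoc1 (22.9 CPM, the others 33.3 to 37.2).

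The library labelled wild type TAC replicate 1, whose Ccl24 count disagrees with its label, had the highest Cd36 of its group (1146 CPM, the others 956.3 to 1011) and the lowest Cd68 (13.4 CPM, the others 19.8 to 22.4). Wild type TAC replicate 4 had the highest mt-Nd3 of its group (51.7 CPM, the others 3.001 to 16.4), and knockout TAC replicate 1 the highest Twf2 (223.7 CPM, the others 189.4 to 190.5). None of Rcan1, Timp1, Isoc1, Cd36, Cd68 and Twf2 lost its call with any of the 14 libraries left out. The calls of Rpl12, Hspa1b and mt-Nd3 were lost without sham libraries, as given with each of them, and not without the library that stood apart.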

How the results depend on the processing

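The counts of 2036 higher and 1954 lower genes stayed within 1.5 times under RLE scaling (2031 and 1961), no filter on low counts (1652 and 1691), a mean of at least 1 CPM (1946 and 2080), DESeq2 (2384 and 2180), limma voom (1834 and 2065), no genotype term (1641 and 1480), upper-quartile scaling (2310 and 1756) and without mitochondrially encoded genes (2173 and 1873). With the replicate number as a block they were 925 and 745, and 82 named genes lost their call. Correlations of deviations between same-numbered libraries lay between -0.22 and 0.06, so no pairing by number was seen. With 2 libraries in each sham group the sham deviations mirror each other, so this check cannot exclude a pairing or shared batch. With 2 sham libraries left out the counts were 830 and 810 (knockout 1 and 2), 250 and 158 (knockout 1, wild type 1), 212 and 173 (knockout 1, wild type 2), 818 and 905 (knockout 2, wild type 1), 778 and 819 (knockout 2, wild type 2) and 286 and 159 (wild type 1 and 2). Leaving out each library in turn gave 1081 to 2244 higher and 1086 to 2204 lower genes, 1107 to 2223 pooled-only genes, 0 to 2756 in wild type alone, 1 to 1361 in knockout alone and 0 to 3 for the interaction, for which DESeq2 called 6. The log2 fold change of Ccl24, -0.14 in the pooled model and not called, turned to 0.0397 with no genotype term, and with each library left out it ran from -0.260 to 0.0672, above 0 without wild type sham 2 or with wild type TAC replicate 1, as labelled, left out (0.0453). No other named gene changed sign. Calls were lost by 15 named genes with no genotype term, 12 each with limma voom and no filter, and 4 as the mean of the genotype effects. The cause of these shifts was not tested. Fewer sham libraries widen the error by construction, and the counts also differed between fits that left out the same number of sham libraries. CPM values under 0.0906 to 0.176, which 3 counts make in these libraries, are at the limit of the depth.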

Other observations

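Proteases of the matrix and their inhibitors rose in 13 of 31 cases and fell in 1 (all genes: 12.8% and 12.3%). Among those of smallest p were Serpine2, a protease inhibitor (log2 fold change 0.91, SE 0.13, edgeR adjusted p = 0.000305), Plat, tissue plasminogen activator (0.76), and the metalloproteases Adamts8 (2.09) and Adamts12 (1.37). Of 30 glutathione and redox defence genes 7 were higher and 4 lower, the latter near the share of all genes. Nqo1, a quinone reductase (0.45), and thioredoxin, Txn1 (0.34), rose, and the glutathione transferases Gsta3 (-1.41) and Gstm1 (-0.50) fell. The redox list held 3 higher genes without wild type sham 1 and 4 without wild type sham 2.

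Of 41 growth factor ligands and receptors of the EGF, FGF, IGF and VEGF families 9 were higher and 7 lower, not far from the shares of all genes. Igfbp7, an IGF-binding protein (1.08), rose, and the ligands Fgf7 (-1.06), Angpt1 (-1.27) and Egf (-1.17) fell. The higher count was 5 without knockout sham 1, 6 without wild type sham 1 and 2 without wild type sham 2. Of 29 TGF-beta family signalling genes 12 rose and 2 fell (all genes: 12.8% and 12.3%), and 6 rose without wild type sham 1 and 4 without wild type sham 2. The 12 genes named here passed with each library left out in turn.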
